A study of Homo sapiens with 8 samples.

Results

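The 36 aminoacyl-tRNA synthetase genes were followed in KYSE70 cells, a human esophageal squamous cell carcinoma line, by RNA sequencing of total RNA. They were the rows of the deposited expression table whose symbol was on a list of 36 names, and all 36 were found among its 28281 genes. Of these, 18 encode cytosolic enzymes, 16 encode mitochondrial enzymes, and 2, GARS1 and KARS1, encode both forms of their enzyme. The cells were left untreated (3 libraries), exposed to 10 µM pyrimethamine (2 libraries) or exposed to 20 nM mitoxantrone (3 libraries), and both exposures lasted 72 h. Pyrimethamine is an inhibitor of dihydrofolate reductase used against protozoan parasites, and mitoxantrone is an anticancer drug that poisons topoisomerase II. The labels do not say whether the replicates were separate cultures, so the p-values measure the spread between these libraries, which may be technical.

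Each aminoacyl-tRNA synthetase joins an amino acid to the tRNAs that carry it to the ribosome. Human cells keep separate nuclear genes for most of the enzymes used in the cytosol and in mitochondria. Several cytosolic synthetases sit with scaffold proteins in the multi-tRNA synthetase complex, and many cytosolic synthetase genes are induced by ATF4, the transcription factor of the integrated stress response.

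Reads recovered from the table numbered 17555689 to 24774358 per library. Values are size-factor-normalised read counts, and a gene was tested where its mean over the 8 libraries was at least 10; 15350 genes were tested, among them all 36 synthetase genes. A gene was called where limma's adjusted p, over all tested genes, was under 0.05. The 10 squamous epithelium markers were expressed in every group, with summed values of 119000 to 125000 in untreated cells, 84500 to 100000 with pyrimethamine and 75600 to 79000 with mitoxantrone. In the same order, the 6 fibroblast markers summed to 1100 to 1210, 1850 to 2060 and 450 to 602, the 4 leukocyte markers to 53.2 to 65.3, 103 to 131 and 117 to 148, and the 4 endothelial markers to 69.8 to 94.4, 180 to 346 and 83.7 to 194. The part of these shifts in the results below was not tested. As these are bulk libraries, fewer cells of a kind and less RNA per cell cannot be told apart.

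In untreated cells the cytosolic genes were expressed above most mitochondrial ones. On a per-length scale (normalised value per kilobase of the longest transcript), the median level was 954 for the 18 cytosolic genes, 185 for the 16 mitochondrial genes and 2392 for the 2 dual genes. KARS1, for lysine, had the highest level at 2673 ± 81.2 (SD, n = 3) per kilobase. GARS1, for glycine, followed at 2110 ± 21.0, TARS1, for threonine, at 2033 ± 105, and MARS1, for methionine, at 1902 ± 107. KARS1 stood above GARS1 in every library, while GARS1 overlapped TARS1 and TARS1 overlapped MARS1. At the other end were TARS3, a second cytosolic threonyl-tRNA synthetase, at 23.8 ± 1.99, AARS2, the mitochondrial enzyme for alanine, at 51.8 ± 11.2, and WARS2, the mitochondrial enzyme for tryptophan, at 79.4 ± 6.02 per kilobase. The mitochondrial gene with the highest level was IARS2, for isoleucine, at 939.9 ± 35.8. Of the 35 pairs of neighbours in the order, 15 overlapped between their libraries.

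With mitoxantrone the synthetase genes leaned downward. Their median log2 fold change was -0.44, beside 0.00 over all tested genes, and 25 of the 36 estimates were negative. The test called 19 members, 52.8% of them, where it called 54.9% of all tested genes, so the share that changed was near the background. The direction was uneven: 16 members (44.4%) fell and 3 (8.33%) rose, where 28.1% and 26.8% of all tested genes did. Members whose mitoxantrone libraries all lay below the untreated ones numbered 24, and 9 lay wholly above (39.5% and 40.4% of all tested genes). Together the 36 genes took 0.426% ± 0.00873 (SD, n = 3) of reads in untreated cells and 0.238% ± 0.00945 (n = 3) with mitoxantrone. Shares of reads are not size-factor-normalised and depend on the reads of all other genes. Their fall is therefore not the fall of the normalised values. All 19 called members kept their calls in a fit of the untreated and mitoxantrone libraries alone. That fit called 32 members and 77.1% of all tested genes. In the fit of all groups, the count of 19 depended on single libraries. It was 12, 11 and 11 without untreated replicates 1, 2 and 3, 12, 11 and 12 without mitoxantrone replicates 1, 2 and 3, and 32 without either pyrimethamine replicate, where 77.1% of all tested genes were called.

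**Figure D1:**
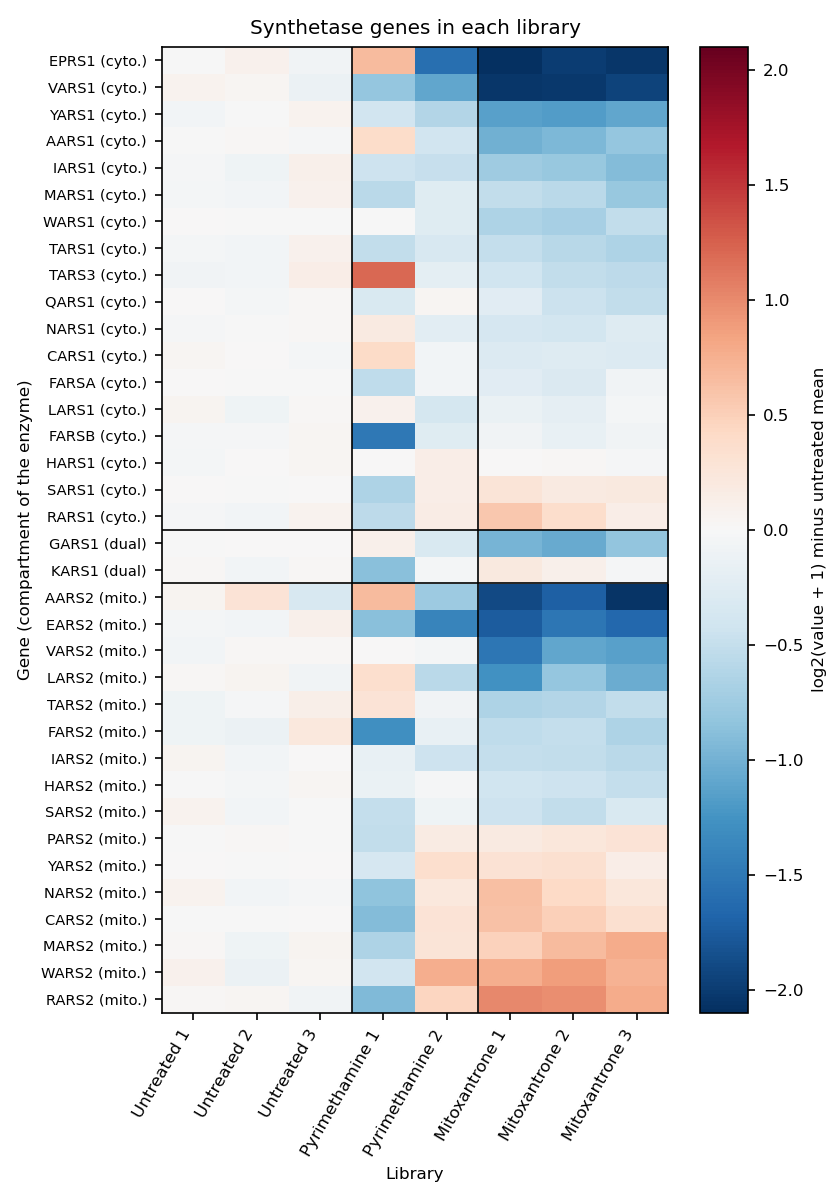
Heat map of the 36 synthetase genes (rows) in the 8 libraries (columns), coloured by log2(value + 1) minus the mean of the 3 untreated libraries. The mitoxantrone columns resemble each other, with 25, 25 and 27 genes below the untreated mean, while the pyrimethamine columns differ, and 21 genes lie on opposite sides of the untreated mean in them.

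**Figure D2:**
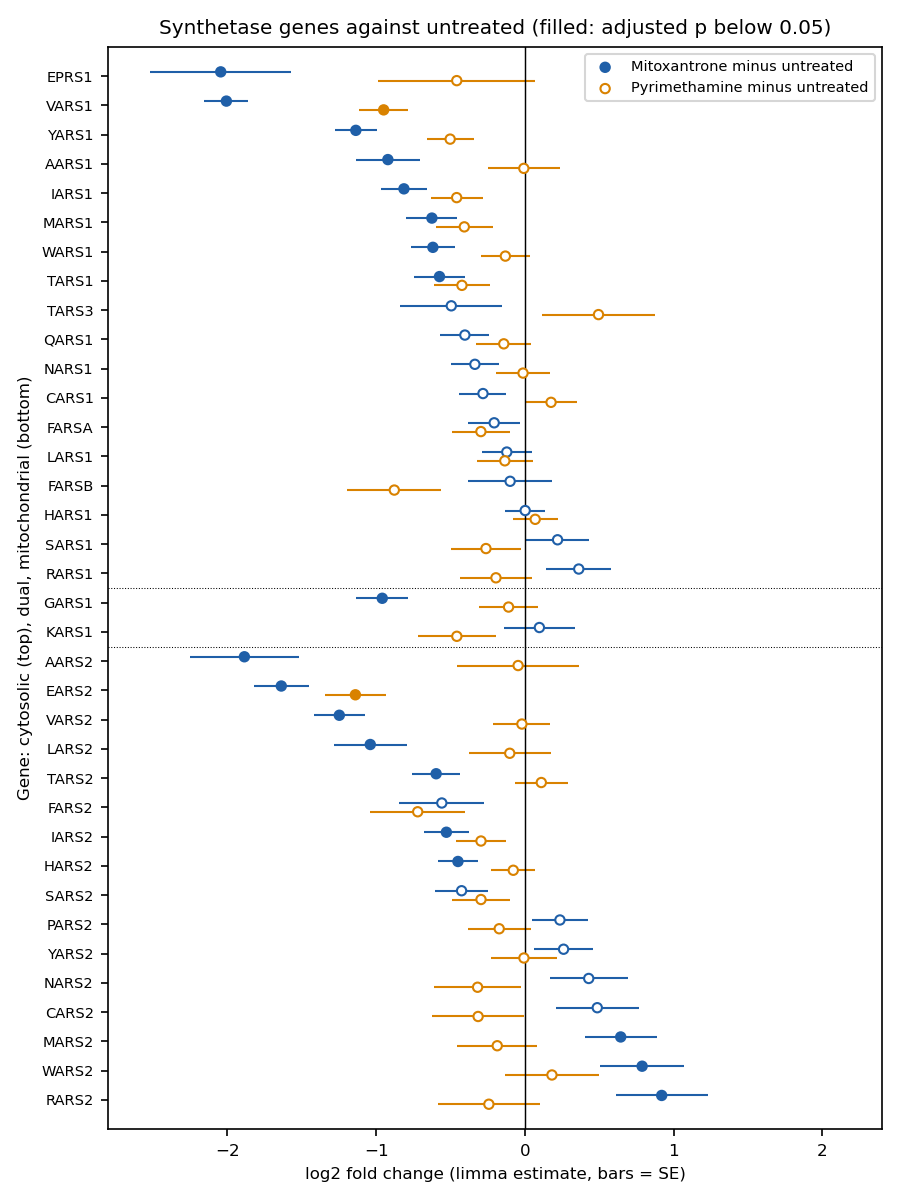
The log2 fold change of each synthetase gene against untreated cells for mitoxantrone (blue, n = 3) and pyrimethamine (orange, n = 2), with bars showing the standard error and filled points an adjusted p under 0.05. With mitoxantrone the estimates run from -2.04 (EPRS1) to 0.92 (RARS2), and the 3 filled points above 0 are all mitochondrial.

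Of the 18 cytosolic genes, 8 fell with mitoxantrone and none rose, and their median log2 fold change was -0.45. The 8 were EPRS1, VARS1, YARS1, AARS1, IARS1, WARS1, MARS1 and TARS1. With the transcript length trend removed, 1 cytosolic gene rose. In a fit of the untreated and mitoxantrone libraries alone, 13 fell and 2 rose, where 77.1% of all tested genes were called. The 18 cytosolic genes together took 0.298% ± 0.00731 (SD, n = 3) of reads in untreated cells and 0.156% ± 0.00706 (n = 3) with mitoxantrone, without size-factor normalisation.

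EPRS1 encodes a fused enzyme that charges both glutamate and proline tRNAs. Its normalised values were 1706, 1822 and 1633 in untreated cells, 2735 and 572 with pyrimethamine and 398, 433 and 418 with mitoxantrone. All 3 mitoxantrone values were below every untreated one, and the pyrimethamine values lay on either side. The mean was 4.12-fold lower with mitoxantrone (log2 fold change -2.04, SE 0.472, adjusted p = 0.00842).

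VARS1, the cytosolic enzyme for valine, had normalised values of 2535, 2465 and 2211 in untreated cells, 1373 and 1124 with pyrimethamine and 583, 586 and 621 with mitoxantrone. The 3 groups did not overlap, with pyrimethamine between the others. The mean was 4.02-fold lower with mitoxantrone (log2 fold change -2.01, SE 0.148, adjusted p = 0.000191). YARS1, for tyrosine, fell by 1.14 on the log2 scale (SE 0.140, adjusted p = 0.00085). AARS1, for alanine, fell by 0.92 (SE 0.216, adjusted p = 0.00895), and IARS1, for isoleucine, fell by 0.81 (SE 0.156, adjusted p = 0.004). MARS1 fell by 0.62 (adjusted p = 0.0167) and TARS1 fell by 0.57 (adjusted p = 0.0217). The MARS1 and TARS1 calls were less firm. TARS1 lost its call whenever 1 untreated or mitoxantrone library was left out, and MARS1 did so for each of them but mitoxantrone replicate 1.

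WARS1 charges tryptophan and is known for its induction by interferon-gamma. Its normalised values were 3119, 3065 and 3069 in untreated cells, 3056 and 2595 with pyrimethamine and 1969, 1911 and 2154 with mitoxantrone. The mitoxantrone libraries were the lowest, with no overlap. The mean was 1.54-fold lower (log2 fold change -0.62, SE 0.148, adjusted p = 0.00969).

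The other 10 cytosolic genes were not called. They were CARS1 (cysteine), FARSA and FARSB (the subunits for phenylalanine), HARS1 (histidine), LARS1 (leucine), NARS1 (asparagine), QARS1 (glutamine), RARS1 (arginine), SARS1 (serine) and TARS3. Their log2 fold changes ran from -0.49 for TARS3 to 0.36 for RARS1. HARS1 had an estimate of 0.00, with a 95% confidence interval of -0.31 to 0.31, and LARS1 one of -0.12, with an interval of -0.51 to 0.27.

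Of these enzymes and the lysine enzyme, 7 belong to the multi-tRNA synthetase complex, and the genes of its parts went separate ways with mitoxantrone. Among the 7 synthetase genes of the complex, EPRS1, IARS1 and MARS1 fell, none rose, and LARS1, QARS1, RARS1 and KARS1 were not called; the median log2 fold change was -0.40. The genes of the 3 scaffold proteins all rose. EEF1E1, the smallest scaffold, had normalised values of 176, 204 and 201 in untreated cells, 104 and 298 with pyrimethamine and 558, 612 and 512 with mitoxantrone (log2 fold change with mitoxantrone 1.53, SE 0.341, adjusted p = 0.00731). AIMP1 had values of 1188, 1207 and 1154, then 706 and 1612, then 2651, 2853 and 2342, in the same order (log2 fold change 1.14, SE 0.278, adjusted p = 0.0104). In both genes every mitoxantrone library was above all others, and the pyrimethamine libraries fell on either side of the untreated ones. AIMP2, named after its value was seen, rose by 1.07 on the log2 scale (SE 0.373, adjusted p = 0.0395); it lost its call whenever 1 untreated or mitoxantrone library was left out. With the length trend removed, EEF1E1 and AIMP1 were still called, EEF1E1 at 0.61, and AIMP2 was not, at 0.25 (adjusted p = 0.244).

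**Figure D3:**
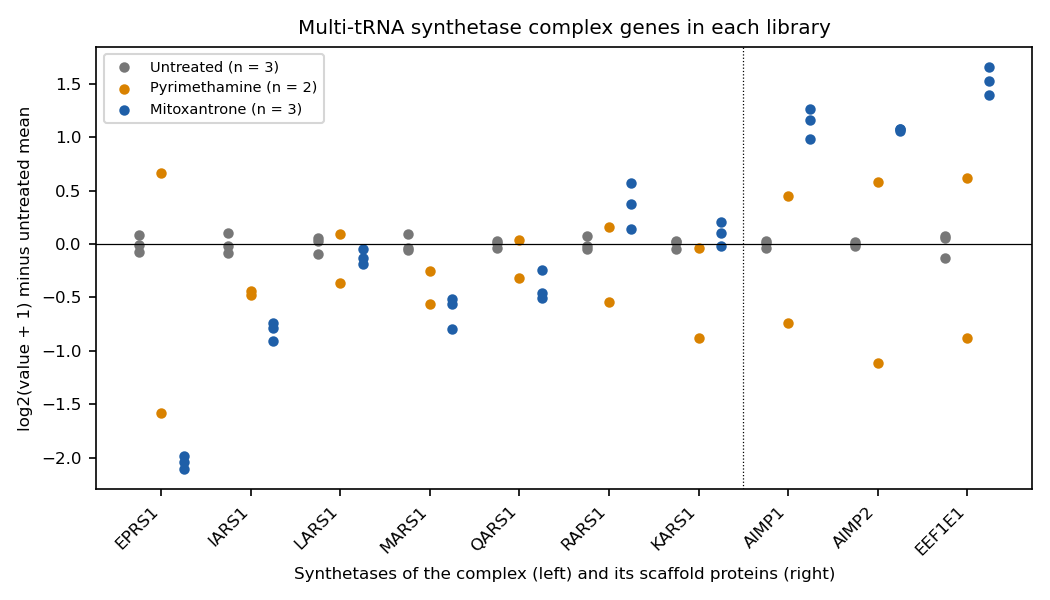
Genes of the multi-tRNA synthetase complex, as log2(value + 1) minus the untreated mean in each library, for 7 synthetases (left of the dotted line) and 3 scaffold proteins (right). Mitoxantrone libraries (blue) are lowest for EPRS1 and highest for EEF1E1, and pyrimethamine libraries (orange) lie far apart for EPRS1 and the scaffold genes.

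Of the dual genes, GARS1 fell with mitoxantrone and KARS1 was not called; the difference between them was not tested. GARS1 had normalised values of 5502, 5613 and 5558 in untreated cells, 5988 and 4431 with pyrimethamine and 2829, 2655 and 3113 with mitoxantrone. Its mitoxantrone libraries were well below all others, and the mean was 1.94-fold lower than in untreated cells (log2 fold change -0.96, SE 0.176, adjusted p = 0.00341). KARS1 had values of 6554, 6248 and 6614, then 3515 and 6316, then 7465, 6975 and 6371. Its mitoxantrone range overlapped the untreated one, and pyrimethamine replicate 1 was the lowest library. The log2 fold change of KARS1 with mitoxantrone was 0.10 (SE 0.236, adjusted p = 0.737, 95% confidence interval -0.44 to 0.64), but -0.46 and called after quantile normalisation (adjusted p = 0.0299). On the per-length scale GARS1 went from rank 2 to rank 7 of the 36 genes, and KARS1 was at rank 1 in both groups.

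Among the 16 mitochondrial genes, 7 fell with mitoxantrone and 3 rose, with a median log2 fold change of -0.44. In a fit of the untreated and mitoxantrone libraries alone, 9 fell and 7 rose. The 16 together took 0.0637% ± 0.000734 (SD, n = 3) of reads in untreated cells and 0.0444% ± 0.000708 (n = 3) with mitoxantrone. This share is not size-factor-normalised and does not measure the fall of their normalised values. The 16 mitochondrial genes split without overlap between the untreated and the mitoxantrone libraries, 9 lower and 7 higher, while 14 of the 18 cytosolic genes were wholly lower and 2 wholly higher. Over all tested genes, 39.5% were wholly lower and 40.4% wholly higher, so separation without overlap was common.

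The lowest mitochondrial estimate belonged to AARS2. Its normalised values were 203, 241 and 154 in untreated cells, 313 and 115 with pyrimethamine and 52.3, 59.4 and 46.3 with mitoxantrone. The mitoxantrone libraries were below all others, and their mean on the log2 scale was 3.69-fold lower than that of untreated cells (log2 fold change -1.89, SE 0.365, adjusted p = 0.0042). EARS2, which charges glutamate in mitochondria, had values of 494, 487 and 548 in untreated cells, 275 and 193 with pyrimethamine and 151, 177 and 162 with mitoxantrone. Its 3 groups did not overlap, and mitoxantrone gave a 3.11-fold lower mean (log2 fold change -1.64, SE 0.185, adjusted p = 0.000622).

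VARS2, the valine enzyme of mitochondria, had normalised values of 390, 411 and 410 in untreated cells, 404 and 392 with pyrimethamine and 141, 190 and 182 with mitoxantrone. The untreated and pyrimethamine libraries overlapped, and the mitoxantrone libraries stood below both. The mean was 2.37-fold lower with mitoxantrone than untreated (log2 fold change -1.25, SE 0.171, adjusted p = 0.00113). LARS2 (leucine) fell by 1.04 on the log2 scale (adjusted p = 0.00945), TARS2 (threonine) fell by 0.60 (adjusted p = 0.0146), IARS2 fell by 0.53 (adjusted p = 0.0187) and HARS2 (histidine) fell by 0.45 (adjusted p = 0.0219). HARS2 and IARS2 lost their calls whenever 1 untreated or mitoxantrone library was left out, and TARS2 did so without untreated replicate 2 or 3 or mitoxantrone replicate 1 or 2.

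The 3 genes that rose were RARS2, WARS2 and MARS2. RARS2, for arginine, had normalised values of 758, 765 and 708 in untreated cells, 391 and 1011 with pyrimethamine and 1495, 1462 and 1274 with mitoxantrone. Every mitoxantrone library was above all others, at a 1.89-fold higher mean than untreated cells (log2 fold change 0.92, SE 0.308, adjusted p = 0.0343), and the pyrimethamine libraries lay on either side of the untreated ones. RARS2 moved from rank 21 to rank 10 on the per-length scale.

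WARS2 had normalised values of 237, 204 and 228 in untreated cells, 168 and 381 with pyrimethamine and 378, 409 and 370 with mitoxantrone. Pyrimethamine replicate 2 lay inside the mitoxantrone range, and the mean with mitoxantrone was 1.73-fold higher than in untreated cells (log2 fold change 0.79, SE 0.281, adjusted p = 0.0424). MARS2, for methionine, had values of 266, 243 and 272, then 166 and 314, then 365, 414 and 445. All its mitoxantrone values were above the rest, and the mean was 1.56-fold higher than in untreated cells (log2 fold change 0.64, SE 0.241, adjusted p = 0.0497). The rises of these 3 genes lost their calls whenever 1 untreated or mitoxantrone library was left out. Over the alternatives, adjusted p reached at most 0.0995 for RARS2, 0.122 for WARS2 and 0.139 for MARS2. The 3 rises kept their calls in a fit of the untreated and mitoxantrone libraries alone, where 77.1% of all tested genes were called. The 6 uncalled mitochondrial genes were CARS2, FARS2, NARS2, PARS2, SARS2 and YARS2, for cysteine, phenylalanine, asparagine, proline, serine and tyrosine. Their log2 fold changes ran from -0.56 for FARS2 to 0.49 for CARS2.

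For 13 amino acids a cytosolic gene could be set against a mitochondrial gene of its own, and their ratio moved with mitoxantrone in both directions. The ratio is the mitochondrial value per 100 of the cytosolic one within a library. It was higher in every mitoxantrone library than in any untreated one for 8 amino acids, lower for 4 (alanine, histidine, leucine and serine) and overlapping for threonine. For tryptophan it went from 7.23 ± 0.495 (SD, n = 3) to 19.3 ± 2.1 (n = 3), as WARS1 fell and WARS2 rose. The tyrosine ratio went from 57.1 ± 2.45 to 151 ± 15 with the fall of YARS1, and YARS2 was not called (log2 fold change 0.26). The methionine ratio went from 4.71 ± 0.192 to 11.5 ± 2.24, as MARS1 fell and MARS2 rose. In the other direction, the alanine ratio went from 4.35 ± 0.870 to 2.19 ± 0.376, although both AARS1 and AARS2 fell. With 3 libraries against 3, the two-sided exact permutation test gave p = 0.1 for each of the 12 ratios without overlap, the smallest p it allows (0.108 after Benjamini-Hochberg adjustment over the 13), so this test could not reach the threshold with these libraries. Both partners fell for alanine, isoleucine, threonine and valine. The partners were called in opposite directions for methionine and tryptophan. The ratios are not adjusted for transcript length, and its part in them was not tested. For example, YARS2 (2122 bases) is shorter than YARS1 (3238 bases), while MARS2 (3019 bases) is longer than MARS1 (2905 bases).

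**Figure D4:**
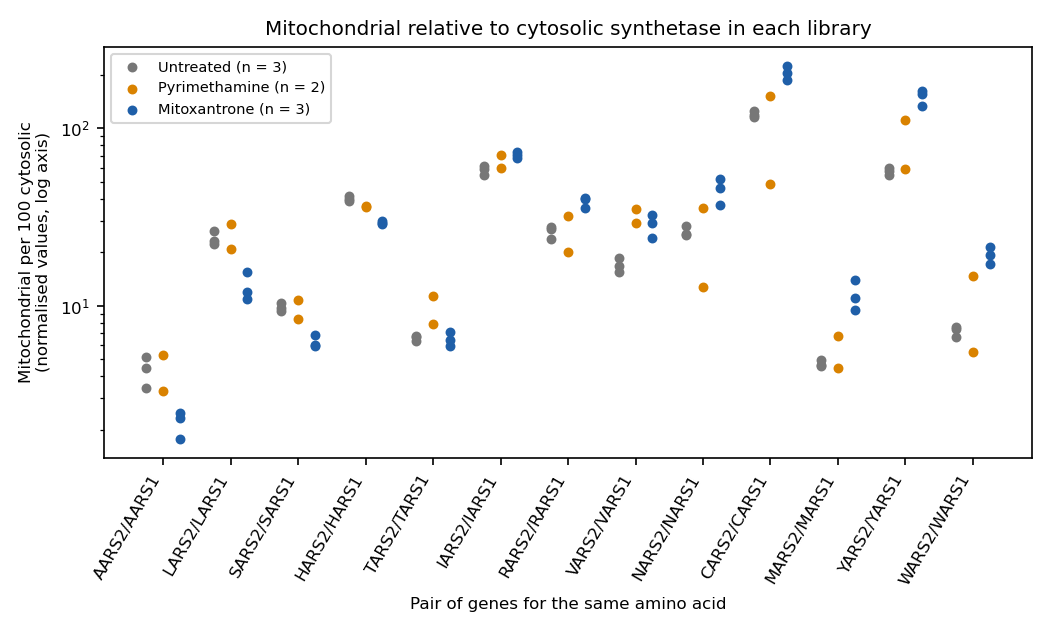
Mitochondrial value per 100 of the cytosolic value for 13 pairs of genes (log axis), 1 point per library, ordered by the change with mitoxantrone. Mitoxantrone points (blue) lie below the untreated points (grey) for the first 4 pairs and above them from IARS2/IARS1 onward, and the TARS2/TARS1 points overlap.

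Change with mitoxantrone also followed transcript length, in the synthetases as in all genes. Spearman's rho between a gene's log2 deviation from the untreated mean and its transcript length was -0.61, -0.62 and -0.64 over the 36 members in mitoxantrone replicates 1, 2 and 3, and -0.42, -0.42 and -0.40 over 14034 tested genes with a length. These are correlations across genes of the same library, which are not independent, and they carry no test. The 16 members that fell had a median length of 3707 bases, the 3 that rose 2811 and the 17 uncalled ones 2421. Within lengths of 3500 to 5015 bases, 9 of 11 members fell and none rose, with a median log2 fold change of -1.04, beside -0.39 over the 2818 genes of that length, of which 38.3% fell. Between 2500 and 3500 bases, 7 of 15 members fell and 2 rose (median -0.40, beside -0.12 over 2630 genes, of which 30% fell and 23.4% rose). Between 1692 and 2500 bases, none of 10 members fell and 1 rose (median 0.23, beside 0.37 over 2614 genes). The median cytosolic transcript was longer, at 3304 bases, than the mitochondrial one at 2624. The part of length in the results was not tested further than by removing the trend, which gave 17 members that fell (8 cytosolic, 8 mitochondrial and 1 dual) and 3 that rose (1 cytosolic and 2 mitochondrial), 15 of them among the 19 called before (53.6% of all genes with a length were called). IARS1, IARS2, RARS2 and TARS1 were then no longer called (log2 fold changes -0.38, -0.27, 0.47 and -0.19). The cytosolic median was then -0.33 and the mitochondrial median -0.42.

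**Figure D5:**
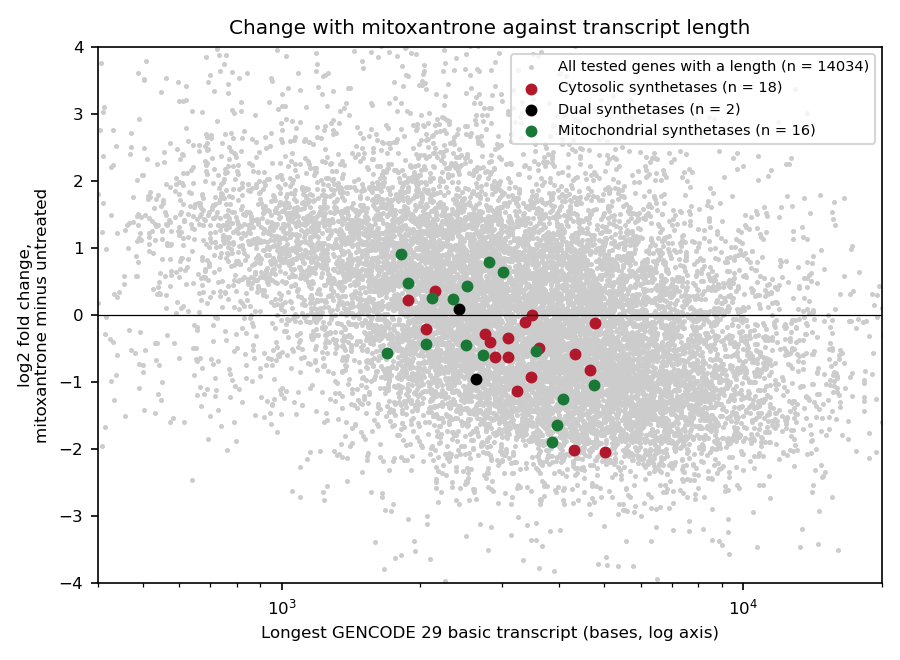
The log2 fold change of mitoxantrone against untreated cells plotted against transcript length (log axis) for the 36 synthetase genes, coloured by compartment, over 14034 tested genes in grey, of which 195 lie outside the axes. The median of synthetase genes of 3500 to 5015 bases is -1.04 and that of genes of 1692 to 2500 bases is 0.23, beside -0.39 and 0.37 for all genes of those lengths; single genes overlap between the length ranges.

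Counting may also tie some members to their neighbours, since the strand setting of the counting is not given in the sources used here. In GENCODE 29 on GRCh38, 14 of the 36 genes have an exon that overlaps an exon of another gene. HARS1 (chr5:140673904-140691862, minus strand) and HARS2 (chr5:140691426-140699318, plus strand) run apart from a shared start region with 402 shared exon bases, so the reads of their first exons cannot be told apart without strand. SARS2 shares 349 exon bases with MRPS12 on the opposite strand and 1492 with a gene model on its own strand. EARS2 shares 370 with UBFD1, WARS1 272 with WDR25, YARS1 248 with S100PBP and AARS2 235 with TMEM151B, each on the opposite strand. EPRS1, VARS1, VARS2 and KARS1 have no such overlap.

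The response of synthetase genes to ATF4 is known to run through a composite site, the CARE (C/EBP-ATF response element). Its letters TGATGNAA (TTNCATCA on the other strand) were searched on both strands in RefSeq promoter windows on GRCh38.p14, each from 250 bases before to 50 bases after a start. The letters occurred in 3.62% of 35116 windows, and in 8 of the 39 windows of members. Counted by gene, 8 of the 30 members with a window held them. The sequences are shown because these 8 are the synthetase genes whose promoter carries the letters of this element, 7 of them for enzymes with a cytosolic form, with the match in capitals and each read 5′ to 3′ on the strand of its gene:
AARS1 (chr16:70289675-70289704, minus strand): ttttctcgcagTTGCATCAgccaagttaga
CARS1 (chr11:3057407-3057436, minus strand): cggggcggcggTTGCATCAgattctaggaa
GARS1 (chr7:30594834-30594863, plus strand): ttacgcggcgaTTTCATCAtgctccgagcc
IARS1 (chr9:92293692-92293721, minus strand): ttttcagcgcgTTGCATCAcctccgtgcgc
MARS1 (chr12:57488053-57488082, plus strand): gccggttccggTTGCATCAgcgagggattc
NARS1 (chr18:57621804-57621833, minus strand): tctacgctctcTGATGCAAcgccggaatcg
TARS1 (chr5:33440956-33440985, plus strand): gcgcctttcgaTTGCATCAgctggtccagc
YARS2 (chr12:32756076-32756105, minus strand): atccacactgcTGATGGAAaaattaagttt

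In 6 of the 8 the window holds the letters TTGCATCA or their reverse complement, TGATGCAA in NARS1; GARS1 and YARS2 differ at the free position. In 5 of the 8 the match lies close to the annotated start, with offsets of -2 in CARS1, -13 in IARS1, -4 in MARS1, 15 in NARS1 and 3 in TARS1. With mitoxantrone, 5 of the 8 fell (AARS1, GARS1, IARS1, MARS1 and TARS1) and none rose, with a median log2 fold change of -0.60. Over all tested genes 28.1% fell and 26.8% rose. The calls of IARS1 and TARS1 were lost with the length trend removed. Of the 22 members whose window lacks the letters, 7 fell and 3 rose, with a median of -0.15, and of the 6 without a window (AARS2, LARS1, TARS3, VARS1, VARS2 and YARS1), 4 fell, with a median of -1.19. The difference between these groups of members was not tested. A match of letters is a description of the window and says nothing of binding.

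Genes known from textbooks and reviews as ATF4-induced synthetases numbered 13, and 9 of them fell with mitoxantrone while none rose (median log2 fold change -0.62), where 28.1% of all tested genes fell and 26.8% rose. Among the 29 tested genes of the integrated stress response list, 13 fell and 4 rose, with a median of -0.38 beside 0.00 over all tested genes. SLC7A11, the cystine transporter subunit, had a normalised value of 4256 ± 118 (SD, n = 3) in untreated cells and 882 ± 21.7 (n = 3) with mitoxantrone (log2 fold change -2.27, adjusted p = 0.000168). DDIT4, an inhibitor of mTOR signalling, went from 4399 ± 224 to 625 ± 83.2 (log2 fold change -2.82, adjusted p = 0.000216). ATF3, a stress-induced transcription factor, rose from 688 ± 57.5 to 3179 ± 165 (log2 fold change 2.21, adjusted p = 0.000513). ATF4 itself, named after its value was seen, fell by 0.49 on the log2 scale (adjusted p = 0.0416). DDIT3, also named after its value was seen, rose by 0.58 (adjusted p = 0.0226). Its exons share 62 bases with MARS1 on the opposite strand. With pyrimethamine, 2 of the 29 rose and 2 fell (2.29% and 1.31% of all tested genes), with a median of 0.08. DDIT4 fell (log2 fold change -2.09, adjusted p = 0.0119), as did SLC7A11 (-1.225, adjusted p = 0.017), and NUPR1 rose (1.326, adjusted p = 0.0207). These calls were lost whenever 1 untreated library was left out, and in a fit of the untreated and pyrimethamine libraries alone.

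WARS1 fell while several other interferon-gamma-induced genes rose. Of 11 tested genes on that list, 5 rose with mitoxantrone and 1 fell, with a median log2 fold change of 0.91 (26.8% and 28.1% of all tested genes rose and fell). PSMB9, an immunoproteasome subunit, changed by 2.02 log2 units (adjusted p = 0.00224) and SOCS1, an inhibitor of cytokine signalling, 1.44 (adjusted p = 0.00613). TAP2, a peptide transporter subunit, fell by 0.99 on the log2 scale (adjusted p = 0.0044), and was not called with the length trend removed (-0.42).

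With pyrimethamine only VARS1 and EARS2 of the 36 members were called, and both fell. That is 5.56% of members, beside 3.6% of all tested genes (2.29% rose and 1.31% fell). VARS1 fell by 0.95 on the log2 scale (SE 0.165, adjusted p = 0.0248) and EARS2 fell by 1.14 (SE 0.207, adjusted p = 0.0276); both pyrimethamine libraries were below every untreated one in each gene. The median over the 36 was -0.19, beside -0.08 over all tested genes. In 12 members both pyrimethamine libraries lay below the untreated ones and in none above (16.9% and 15.8% of all tested genes). WARS1, GARS1 and KARS1 were not called, with log2 fold changes of -0.13, -0.11 and -0.46.

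The 2 pyrimethamine libraries disagreed on most members. In 15 of the 36 (41.7%), replicates 1 and 2 were both above or both below the mean of untreated cells, and 44.5% of all tested genes were. In 10 members replicate 1 was below and replicate 2 above that mean, as in RARS2, WARS2 and MARS2, and in 11 replicate 1 was above and replicate 2 below, as in EPRS1 and AARS2. The members' deviations rose with transcript length in replicate 1 (rho 0.48 over the 36, 0.35 over all genes) and fell with it in replicate 2 (rho -0.72 and -0.39). Both calls were lost whenever 1 untreated or mitoxantrone library was left out, with 0 members called in each of those 6 fits. Without pyrimethamine replicate 1 the count was 16, where 47.4% of all tested genes were called, and without replicate 2 it was 24, where 49.3% were, since the remaining library was then given the small spread of the other groups.

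Between the compounds, whose comparisons with untreated cells share the same 3 control libraries, mitoxantrone gave lower values in 10 members and higher values in 2 (41% of all tested genes differed, 19.9% lower and 21.2% higher). The doses differed, at 20 nM and 10 µM. The largest falls relative to pyrimethamine were in AARS2 (log2 difference -1.84, SE 0.408, adjusted p = 0.0223), EPRS1 (-1.59, SE 0.528, adjusted p = 0.0437), VARS2 (-1.23, SE 0.191, adjusted p = 0.017) and VARS1 (-1.06, SE 0.165, adjusted p = 0.017). The others lower with mitoxantrone were AARS1, GARS1, LARS2, TARS2, WARS1 and YARS1. RARS2 was higher with mitoxantrone by 1.16 on the log2 scale (SE 0.345, adjusted p = 0.0332) and MARS2 by 0.83 (SE 0.269, adjusted p = 0.0409). Members whose mitoxantrone libraries all lay below both pyrimethamine libraries numbered 17, and 8 lay above (30.4% and 32.9% of all tested genes). The median difference was -0.29 over the cytosolic genes and 0.02 over the mitochondrial ones. Without pyrimethamine replicate 1 these medians were -0.26 and -0.169, and without replicate 2 they were -0.296 and 0.348. With the length trend removed they were -0.231 and -0.122. The 12 calls fell to 4, 3 and 3 without untreated replicates 1, 2 and 3, to 0, 0 and 4 without mitoxantrone replicates 1, 2 and 3, and were 14 and 30 without pyrimethamine replicates 1 and 2, where 35.3% and 75.8% of all tested genes were called.

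Genes that act around the synthetases had positive medians with mitoxantrone, beside 26.8% of all tested genes that rose and 28.1% that fell. Of 11 tested genes for synthetase cofactors and proofreading, 4 rose, a share near that background, and none fell (median log2 fold change 0.48). PSTK, which phosphorylates serine on selenocysteine tRNA, had the highest rise, from a normalised value of 46.8 ± 11.6 (SD, n = 3) to 280 ± 31.1 (log2 fold change 2.57, adjusted p = 0.00138). Of 22 tested genes for tRNA maturation and export, 9 rose and 2 fell (median 0.70). The 2 that fell were XPOT and ELAC2. XPOT, the tRNA export receptor, fell by 1.05 on the log2 scale (adjusted p = 0.00135), and was not called with the length trend removed (-0.41). ELAC2, which trims the 3′ ends of tRNA precursors, fell by 1.43 (adjusted p = 0.00151). RPP40, a subunit of ribonuclease P, rose by 1.86 (adjusted p = 0.00818). Median lengths were 2717 bases for the cofactor genes and 2285 for the maturation genes, beside 2962 for the synthetase genes. With pyrimethamine none of these genes was called.

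Downstream of charging, 1 of 6 cytosolic elongation factor genes was called with mitoxantrone, beside 54.9% of all tested genes. The median log2 fold change of the 6 was 0.44, with 5 estimates above 0 and 1 below. The called gene was EEF2, the translocase, which went from 48060 ± 252 (SD, n = 3) to 20060 ± 2251 (log2 fold change -1.27, adjusted p = 0.00603). Of 12 mitochondrial translation factor genes, 3 rose and 1 fell (median 0.23), where 26.8% of all tested genes rose and 28.1% fell. GFM2, a ribosome recycling factor, rose by 0.90 on the log2 scale (adjusted p = 0.0145) and MTRF1L, a release factor, by 0.61 (adjusted p = 0.0109), while C12orf65, a ribosome rescue factor, fell by 0.84 (adjusted p = 0.00883), a call lost after quantile normalisation (-0.50). The call of GFM2 was lost without untreated replicate 1 or 2 or mitoxantrone replicate 2, and that of MTRF1L without untreated replicate 2. The share of reads from ribosomal protein genes, taken by symbol, was 9.41% ± 0.109 (SD, n = 3) in untreated cells, 3.85% and 11.8% in the pyrimethamine libraries and 16.1% ± 0.743 (n = 3) with mitoxantrone, against the fall of the synthetase share to 0.238%. Its part in the synthetase result was not tested.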

How the data were processed

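Total RNA of KYSE70 cells was sequenced: 3 libraries of untreated cells, 2 after pyrimethamine (10 µM) and 3 after mitoxantrone (20 nM), both for 72 h. The submitters' processing notes name STAR 2.6.90c, featureCounts 1.5.1, cutadapt 1.12 and FastQC 0.11.5 with hg38. Strandedness, annotation and the handling of multi-gene reads in counting were not given in the sources used here. The deposited values are a signal: read counts per gene divided by DESeq2 size factors by the authors, per the table's name. Each library's values were whole multiples of a step, and 100% were whole reads within 0.1. Depth was 17555689 to 24774358 reads, and 0 columns held other samples.

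Differences were tested in R 4.3.3 with limma 3.58.1, using log2(value + 1) and a trended prior, with group as the only term and all 8 libraries (5 residual degrees of freedom), two-sided, for genes with a mean of at least 10. Folds of low genes are understated by the pseudocount of 1. Benjamini-Hochberg adjustment ran over all 15350 genes at a threshold of 0.05. The counts called were 553 genes changed by pyrimethamine, 8430 changed by mitoxantrone and 6299 differing between them. edgeR 4.0.16 and DESeq2 1.42.0 on recovered reads were alternatives and called 670 and 1738, 8478 and 9238, and 6713 and 8088. The test was checked on simulated data in which all libraries had the same spread and genes changed in the mitoxantrone group only. It was not checked for changes with pyrimethamine, or for pyrimethamine libraries that differ as these do.

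The members and all lists were chosen with earlier results of these data known. Every member is named; library values are given for the 4 highest and 4 lowest called members per comparison and for WARS1, GARS1 and KARS1, and up to 3 genes with the smallest adjusted p are named from each other list. AARSD1 had no row under a matching symbol. Lengths are the longest GENCODE 29 basic transcript on GRCh38, for 91.4% of tested genes and all 36 members; promoter windows are from RefSeq (GRCh38.p14), for 30 members. The labels number the second pyrimethamine library 2 in its title and 3 in its description, and the title was used.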

Additional observations from a re-analysis of the deposited data

How the results depend on the processing

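The alternatives changed 1 choice each, except that removing the length trend also left out genes without a length (14034 tested) and that edgeR and DESeq2 changed the input, the scaling and the test together. Of the 19 synthetase genes called with mitoxantrone, 10 (AARS1, AARS2, EARS2, EPRS1, GARS1, LARS2, VARS1, VARS2, WARS1 and YARS1) kept their call in all 20 alternatives; of the 2 called with pyrimethamine and the 12 called between the compounds, 0 did. IARS1 lost its call with mitoxantrone only when the length trend was removed. Leaving out 1 library at a time gave 10 to 7571 genes changed by pyrimethamine and 0 to 11638 differing between the compounds, and 0 to 24, 11 to 32 and 0 to 30 synthetase genes for pyrimethamine, mitoxantrone and the difference; where pyrimethamine keeps a lone library, it is assumed to vary like the other groups. Genes changed by pyrimethamine numbered 291 without a filter on low values, 322 after quantile normalisation, 1738 with DESeq2 and 1153 with the length trend removed; synthetase genes numbered 1 after quantile normalisation and 5 with DESeq2. Fitting the 2 groups alone gave 0 genes for pyrimethamine (2077 at an unadjusted p under 0.05) and 0 between the compounds (6009), with 0 synthetase genes in each, but 32 synthetase genes for mitoxantrone, where 77.1% of all genes were called. The cause of these shifts was not tested. Correlations of same-numbered libraries ran from -0.41 to 0.127. The 2 pyrimethamine libraries gave equal and opposite correlations with every library of the other groups (-0.0841 and 0.0841 with untreated replicate 1). Their correlations could therefore not show whether replicate numbers pair the libraries. A replicate block by the title number or by the description number gave 0 genes, and 0 synthetase genes, for pyrimethamine (2084 and 2027 genes at an unadjusted p under 0.05) and between the compounds (7359 and 6499); for mitoxantrone it gave 13 and 11 synthetase genes. The median of all genes with pyrimethamine shifted by 0.121 log2 units under upper-quartile scaling, 0.138 with edgeR and 0.106 with DESeq2; relative to all genes, the median of the 36 members was -0.112, -0.166 and -0.160, beside -0.112 before. Genes that rose and fell with pyrimethamine then numbered 501 and 139 (upper-quartile), beside 352 and 201, and edgeR called 2512 genes higher and 4201 lower between the compounds, beside 3247 and 3052. Upper-quartile scaling left 3 members up and 16 down with mitoxantrone.

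Over the 36 members, the estimates that kept their direction with pyrimethamine numbered 28 under upper-quartile scaling, 26 after quantile normalisation and 24 and 27 without pyrimethamine replicates 1 and 2; with mitoxantrone they numbered 33 after quantile normalisation and 31 with the length trend removed, and 35 or 36 under the others. Among the called members of each comparison and WARS1, GARS1 and KARS1, directions reversed for GARS1 with pyrimethamine (0.0126 under upper-quartile scaling, 0.20 after quantile normalisation, and -0.33 to 0.11 with 1 library left out), for WARS1 with pyrimethamine (0.0787 after quantile normalisation), and for KARS1 with mitoxantrone (-0.46 after quantile normalisation, -0.0577 with the length trend removed) and between the compounds (-0.15 after quantile normalisation). The compartments changed order with the setting: the median log2 fold change with mitoxantrone was -0.61 for cytosolic and -0.15 for mitochondrial genes after quantile normalisation, but -0.33 and -0.42 with the length trend removed. With 2 pyrimethamine libraries that differ this much, changes of synthetase genes by that compound are poorly resolved.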
